A study of Rattus norvegicus with 24 samples.

Results

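Genes of fatty acid oxidation and further targets of PPARA were followed through the liver, brain, thymus and spleen of rats. The list held 31 gene symbols, a list of gene names drawn up with earlier results of these data known, and each was looked up in the symbol column of the count table. Of the 31 symbols, 30 were found, each on 1 of the 32883 genes of the table, and Acaa1a was not among the symbols. They are 2 regulators (Ppara and Ppargc1a), 5 genes of the carnitine shuttle and 13 genes of mitochondrial beta-oxidation. The others are 2 peroxisomal enzymes, 2 ketone body enzymes and 6 other PPARA targets. Among the 13 mitochondrial genes, Etfa, Etfb and Etfdh pass on the electrons of the spiral. For 29 of the 30, the RefSeq transcript named in the table carried the same symbol in RefSeq, and for Eci2 no match was found. Acot1 and Acot2 are near-identical neighbouring genes, so reads may have been divided between them and both are uncertain. In RefSeq, Ppara overlaps Cdpf1 and Slc25a20 overlaps a second protein-coding gene, and their counts are uncertain in the same way.

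The rats were Sprague-Dawley, an outbred stock, aged 7 months in every group, with no genetic change stated. The treatment label reads SAM-exposed or Sham, the series title speaks of PCB exposure (the usual abbreviation of polychlorinated biphenyls), and neither the dose nor the duration is given; the exposed group is called SAM here. Polyadenylated RNA was sequenced in 24 libraries, 3 of each of the 8 combinations of tissue and treatment. Numbers 1, 2, 3 and 5 mark SAM animals and 13 to 17 Sham animals, and since nothing states outright that the libraries of a group came from separate animals, the p-values measure the spread between these libraries, which may be partly technical.

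Fatty acids enter mitochondria as acylcarnitines and are shortened there in repeated rounds of dehydrogenation, hydration, a second dehydrogenation and thiolysis, with the electrons passed on by the electron transfer flavoprotein. Peroxisomes begin the breakdown of very long chains, and in fasting the liver turns much of the resulting acetyl-CoA into ketone bodies. PPARA is a nuclear receptor that binds fatty acids and, as a dimer with RXR on repeats of the half-site AGGTCA, switches on many of these genes in the fasting liver.

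RefSeq promoter windows on the build GRCr8, from 250 bases before to 50 bases after the start site, matched 26 of the 31 symbols. The half-site AGGTCA, searched on both strands, was found in 4 of the 26 windows (Acadvl, Eci1, Eci2 and Hadhb), and in 16.2% of the 33469 windows of all genes. The direct repeat with 1 base between its half-sites, AGGTCANAGGTCA, on either strand and overlapping the half-site by construction, was in 0 of the 26 and in 0.0538% of all windows. A match of letters is a description of these windows only. Windows of 3 genes are shown because they hold the half-site, in capitals (TGACCT where it lies on the opposite strand), and because their genes recur in the results: Acadvl and Eci1 in brain, and Hadhb in thymus.
Acadvl promoter, chr10:55236656-55236955, minus strand: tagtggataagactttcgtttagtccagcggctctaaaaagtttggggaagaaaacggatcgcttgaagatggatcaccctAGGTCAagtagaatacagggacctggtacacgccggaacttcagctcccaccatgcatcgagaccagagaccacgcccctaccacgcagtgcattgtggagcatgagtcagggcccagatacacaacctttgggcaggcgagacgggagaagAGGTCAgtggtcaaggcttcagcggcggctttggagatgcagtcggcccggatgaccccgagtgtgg
Eci1 promoter, chr10:13961000-13961299, plus strand: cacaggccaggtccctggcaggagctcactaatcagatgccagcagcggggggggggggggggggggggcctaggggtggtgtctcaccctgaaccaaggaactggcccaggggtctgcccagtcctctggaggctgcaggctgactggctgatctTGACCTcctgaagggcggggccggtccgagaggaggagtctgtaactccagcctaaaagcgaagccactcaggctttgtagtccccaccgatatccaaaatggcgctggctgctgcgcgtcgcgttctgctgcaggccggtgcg
Hadhb promoter, chr6:31907451-31907750, minus strand: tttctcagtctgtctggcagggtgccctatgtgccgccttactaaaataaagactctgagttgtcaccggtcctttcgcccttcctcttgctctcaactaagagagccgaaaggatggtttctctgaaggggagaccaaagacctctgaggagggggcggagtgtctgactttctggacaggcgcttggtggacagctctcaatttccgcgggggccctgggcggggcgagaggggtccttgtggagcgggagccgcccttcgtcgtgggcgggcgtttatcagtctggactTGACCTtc
With the start site counted as 0, the half-sites begin at -169 and -17 in Acadvl, at -94 in Eci1 and at 42 in Hadhb. The Hadhb window overlaps that of Hadha, the gene of the partner subunit on the other strand, by 200 bases.

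Library totals ran from 12851169 to 20124738 counts. Levels are given in CPM (counts-per-million), and at these depths 1 CPM is about 12.9 to 20.1 counts. The CPM values were scaled by the trimmed mean of M-values (TMM) within a tissue. Differences are log2 fold changes, SAM minus Sham, from edgeR's quasi-likelihood test fitted to all genes of a tissue that passed a filter on low counts. Their standard error (SE) is approximate. It was derived as the size of the fold change divided by the square root of the test's F statistic. Adjusted p-values are Benjamini-Hochberg values over those genes with 0.05 as the threshold. Each tissue carried its defining markers: summed hepatocyte markers were at 135076.2 to 171965.7 CPM in liver and at most 77.2 CPM elsewhere, neuron markers at 4057.9 to 6708.9 CPM in brain, immature thymocyte markers at 4734.0 to 5910.6 CPM in thymus and B cell markers at 2033.0 to 2575.6 CPM in spleen. Some libraries stood apart. The liver library of SAM 1 had a share of 17.8% of mitochondrially encoded transcripts, where the remaining liver libraries had 5.71 to 8.07%. In brain, summed inhibitory neuron markers were at 2383.5 and 2075.8 CPM in SAM 1 and SAM 2 and at 509 to 613 CPM in the other 4, while excitatory forebrain markers were at 1593.0 and 1920.4 CPM against 3246.2 to 3812.6 CPM. In thymus, Ucp1, the uncoupling protein of brown fat, was at 81.3 CPM in SAM 1, at 141 CPM in Sham 15 and at 0 to 0.102 CPM in the other 4. In bulk tissue, fewer cells of a type and less RNA per cell cannot be told apart.

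Where the genes were expressed was asked first in the Sham animals, whose 12 libraries were scaled together, which gives other CPM values than scaling within a tissue. Liver stood above the mean of brain, thymus and spleen for 28 of the 30 members and below it for 0, at an adjusted p under 0.05 in edgeR's quasi-likelihood test. Of all 17204 genes tested, 36.3% were called higher in liver and 40.3% lower. The members' median difference was 3.84 on the log2 scale, and that of all genes -0.25. The 2 members not called were Cpt1b and Acot1. In the SAM animals the same contrast called 28 members higher and 1 lower, against 29.8% of 17005 genes higher and 43.5% lower, with a median of 3.62 for the members and -0.53 for all genes.

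The peroxisomal genes showed the widest gap. Ehhadh, the peroxisomal bifunctional enzyme and a classical PPARA target in rodents, was at 801 ± 81.4 CPM in Sham liver (SD, n = 3), at 2.43 ± 0.606 in brain, 7.12 ± 6.01 in thymus and 3.15 ± 0.888 in spleen. All 3 liver libraries of Ehhadh lay above every library of the other tissues, and the log2 difference was 7.72 ± 0.31 (SE). Eci2, which moves double bonds of unsaturated chains into a position that can be oxidised, followed with 1646.2 ± 140 CPM in liver and 24.8 to 76.7 CPM in the other libraries. The receptor gene Ppara itself was at 45.9 to 75.6 CPM in Sham liver and at 0.247 to 5.94 CPM elsewhere, a log2 difference of 5.16 ± 0.52. Fgf21, a hormone released by the fasting liver, stood at 9.13 to 15.3 CPM in liver and below 1 CPM in every other library. The smallest called differences were those of Hadhb (1.77 ± 0.26), Acot2 (1.98) and Hadha (2.07), where Hadha and Hadhb are the subunits of the mitochondrial trifunctional protein. For Hadhb, every liver library (355 to 447 CPM) was nevertheless above every other library.

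For 26 of the 30 members every Sham liver library was above every other Sham library. The share of all genes with this arrangement was not computed, and 36.3% of all genes tested were called higher in Sham liver. Ppargc1a, a coactivator of mitochondrial genes, was highest in brain, at 24.2 ± 2.26 CPM against 6.09 ± 0.419 in liver, although liver passed the test against the mean of the 3 other tissues with TMM scaling (2.22). Vnn1, an enzyme that splits pantetheine and a sensitive PPARA target in liver, was at 33.6 ± 11.0 CPM in liver and 29.1 ± 5.97 CPM in spleen, levels that do not differ beyond their spread. Brain held 0.174 ± 0.147 CPM of Vnn1 and thymus 2.45 ± 0.233 CPM. Cpt1b, the muscle form of the outer carnitine palmitoyltransferase, had its highest mean in thymus, 32.1 ± 47.3 CPM, of which 86.7 CPM in the library of Sham 15 was the highest value, and its liver level of 3.71 ± 1.84 CPM did not differ beyond its spread from brain (4.35 ± 0.538) or spleen (4.15 ± 0.451). Acot1, a cytosolic acyl-CoA thioesterase, was at 0.992 ± 0.282 CPM in brain and at most 0.175 CPM in any library of the other tissues, and its 3 SAM liver libraries were all at 0 counts.

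These counts depended in part on scaling. With no scaling beyond library totals the median of all genes in Sham fell to -1.82, and 26 members were called higher and 1 lower (Cpt1b, -2.75). Ppargc1a (0.64) and Hadhb were then not called in Sham. In SAM the same setting called 24 members higher and 2 lower (Cpt1b and Acot1), and Ppargc1a (0.53), Cpt1a, Hadhb and Acot2 were not called. The members' median was 4.08 above that of all genes in Sham without scaling, against 4.09 with TMM, and 4.13 against 4.16 in SAM. The share of higher calls among all calls went from 47.4% to 16.6% in Sham and from 40.7% to 15.2% in SAM. Without thymus Sham 15 the difference of Cpt1b was -0.26 in place of -1.18, and in the SAM animals without thymus SAM 1 it was called lower at -0.56 (adjusted p = 0.0481).

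**Figure D1:**
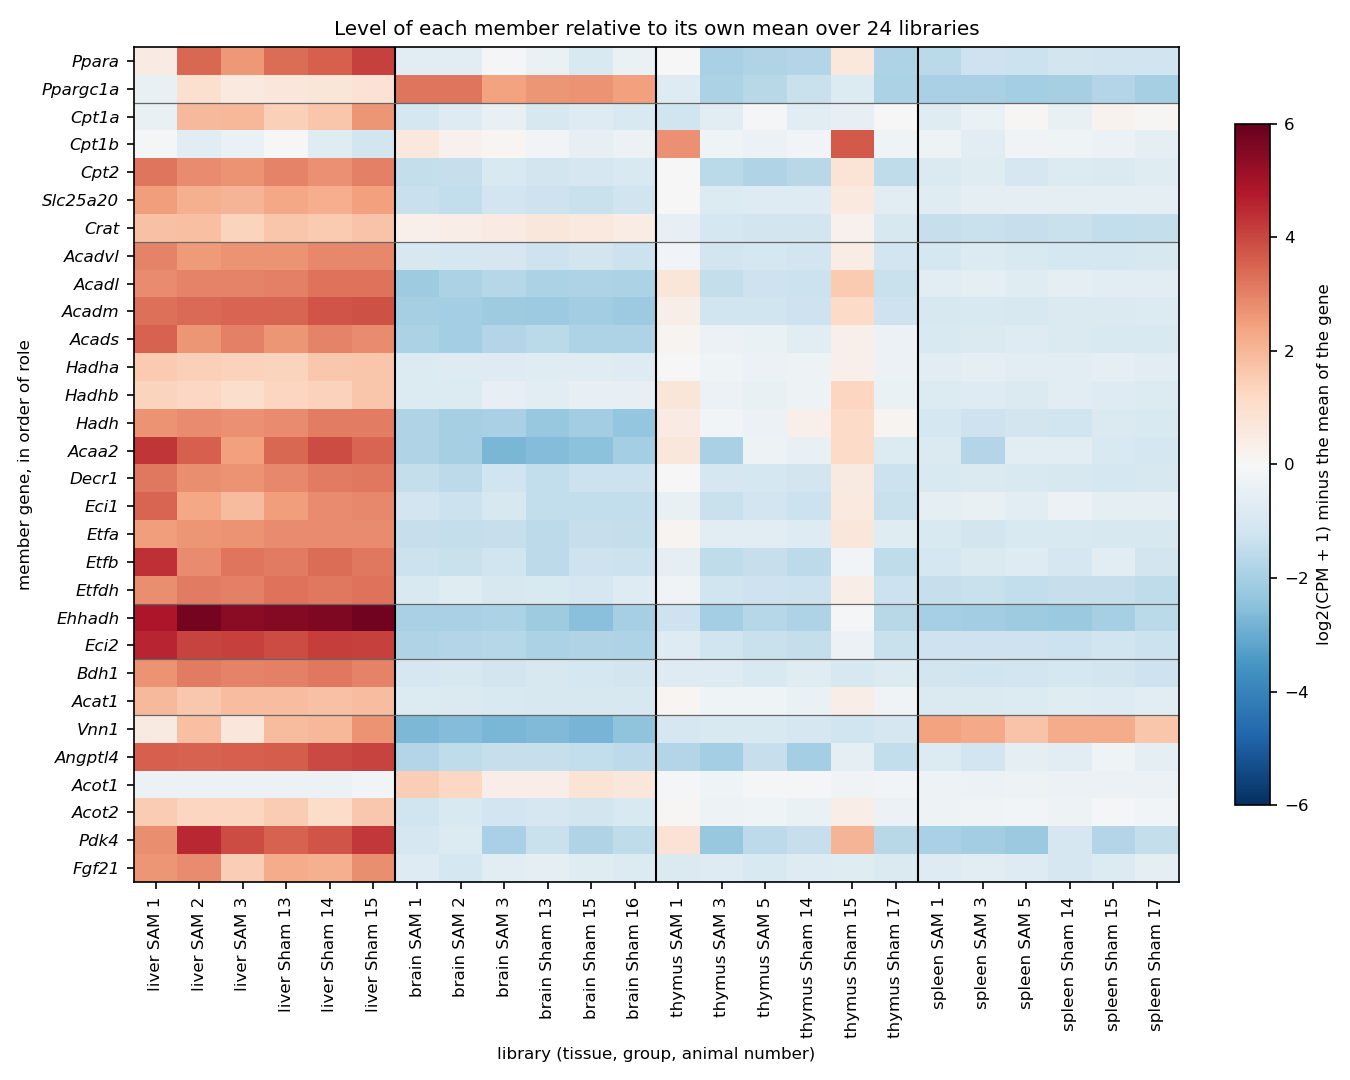
Heat map of the 30 members, in order of role from regulators at the top to other PPARA targets at the bottom, in the 24 libraries along the x axis; colour gives log2(CPM + 1) minus the gene's own mean over the 24 libraries. The 6 liver libraries on the left are red for nearly all members, Ppargc1a is highest in brain, Vnn1 is high in spleen, and the thymus libraries of SAM 1 and Sham 15 are redder than the other 4 thymus libraries.

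In liver, 5 genes of mitochondrial beta-oxidation and 2 other PPARA targets were lower in every SAM library than in every Sham library. No member passed the test. Of the 29 members tested (Acot1 had too few counts), 10 were higher and 19 lower in SAM, with a median log2 fold change of -0.06 against 0.02 for all genes. At an adjusted p under 0.05, edgeR called 0 members and 0 of 12130 genes (0%), and at an unadjusted p under 0.05 it gave 1 member and 2.70% of all genes. DESeq2 also called 0 members and 2 genes. For 7 members every SAM library lay below every Sham library, as for 5.63% of all genes, and for 0 members every SAM library lay above, as for 5.19%. Beside these values, summed erythroid markers (5 of 5 found) were higher in every SAM liver library, at 1128.3, 483 and 777 CPM against 345, 441 and 353 CPM in Sham. Summed fasting and glucagon response genes (6 of 6 found) were at 1486.9, 1534.6 and 1122.6 CPM in SAM and at 1475.6, 2743.0 and 2237.9 CPM in Sham. The part of either in the members' values was not tested.

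Vnn1 was the member with the lowest p. It was at 4.11, 10.1 and 4.46 CPM in SAM 1, 2 and 3 and at 11.3, 11.6 and 19.2 CPM in Sham 13, 14 and 15. All SAM libraries were below all Sham libraries, with SAM 2 close to Sham 13 and 14. The log2 fold change of Vnn1 was -1.15 ± 0.39 (adjusted p = 0.802, edgeR's quasi-likelihood test), and -0.93 without SAM 1. Angptl4, a secreted inhibitor of lipoprotein lipase, was at 138, 128 and 133 CPM in SAM and at 143, 169 and 184 CPM in Sham. The SAM libraries of Angptl4 were close together and just below the lowest Sham library, for a difference of -0.31 ± 0.15.

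The remaining 5 members whose liver groups did not overlap belong to mitochondrial beta-oxidation, Etfa and Etfdh by passing on its electrons. Acadm, the medium-chain acyl-CoA dehydrogenase, was at 470, 495 and 528 CPM in SAM and at 545, 634 and 653 CPM in Sham. Acadl, which acts on longer chains, was at 273, 288 and 292 CPM in SAM and at 307, 345 and 356 CPM in Sham. Both dehydrogenases were lower in every SAM library, by log2 fold changes of -0.30 ± 0.15 and -0.24 ± 0.14. Hadh, the short-chain 3-hydroxyacyl-CoA dehydrogenase, was at 204, 215 and 201 CPM in SAM and at 221, 253 and 254 CPM in Sham. Etfa, the alpha subunit of the electron transfer flavoprotein, was at 240, 250 and 267 CPM in SAM and at 293, 287 and 284 CPM in Sham. Etfdh, which hands the electrons to ubiquinone, was at 174, 212 and 201 CPM in SAM and at 242, 218 and 235 CPM in Sham. These 3 differences were -0.23, -0.19 and -0.24, each about as large as 1 to 2 SE, and each adjusted p was 0.802. Over the 13 mitochondrial genes, 10 were lower and 3 higher, with a median of -0.12.

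Apart from the 2 regulators, both lower in SAM, the other roles showed no common direction in liver. Ppara was at 2.29, 20.2 and 11.2 CPM in SAM and at 19.7, 21.6 and 31.3 CPM in Sham. SAM 1 was the lowest library of Ppara, and SAM 3 was also below the Sham range. The difference of Ppara, -1.09 ± 0.61, was -0.62 ± 0.27 without SAM 1 and -1.81 without SAM 2. Cpt1a, the liver form of the rate-limiting carnitine palmitoyltransferase, was at 19.7, 101 and 105 CPM in SAM and at 71.8, 80.9 and 162 CPM in Sham. Only SAM 1 was below the Sham range, and the difference of Cpt1a went from -0.47 ± 0.59 to -0.02 without it. Ehhadh was at 199, 355 and 287 CPM in SAM and at 312, 321 and 368 CPM in Sham, a difference of -0.25 that was -0.06 without SAM 1. Pdk4, a kinase that holds pyruvate back from oxidation, was at 36.1, 114 and 75.9 CPM in SAM and at 60.6, 67.4 and 96.2 CPM in Sham. Fgf21 was at 5.94, 6.45 and 2.26 CPM in SAM and at 4.24, 3.74 and 6.35 CPM in Sham. For both, the SAM libraries spread on both sides of the Sham range and the differences were 0.01 and 0.03. Ppargc1a was at 0.914, 2.97 and 2.26 CPM in SAM and at 2.47, 2.44 and 2.72 CPM in Sham, with SAM 1 again lowest. Its difference was -0.28 ± 0.40, and 0.05 without SAM 1. The ketone body enzymes Bdh1 (-0.10) and Acat1 (0.01) and the shuttle genes Cpt2 (0.03), Slc25a20 (-0.05) and Crat (0.01) differed by less than 1 SE.

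The library of SAM 1 was at an end of the range for most genes, members or not. It was highest for 11 and lowest for 11 of the 29 members tested, together 75.9%, and highest for 36.3% and lowest for 37.8% of all genes, together 74.1%. Acaa2, the last thiolase of the spiral, was at 856 CPM in SAM 1 and at 232 to 625 CPM in the other 5 libraries, while Etfb was at 558 CPM against 184 to 258 CPM. The clock gene Nr1d1, 1 of 10 clock genes listed, was at 5.48 CPM in SAM 1 and at 38.9 to 96.9 CPM in the others. The summed clock genes were at 135 CPM in SAM 1 and at 210 to 299 CPM in the other libraries. These values stood beside the mitochondrial share of 17.8% in SAM 1. The part of the clock genes or of that share in the members' values was not tested. Without SAM 1, 5 members were higher and 24 lower with a median of -0.16, and 4 members had an unadjusted p under 0.05, among them Eci1 (-0.64 ± 0.16, adjusted p = 1.0 in edgeR's quasi-likelihood test). Leaving out SAM 2 gave 3 members at that unadjusted threshold, and leaving out SAM 3 or Sham 15 gave 0.

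**Figure D2:**
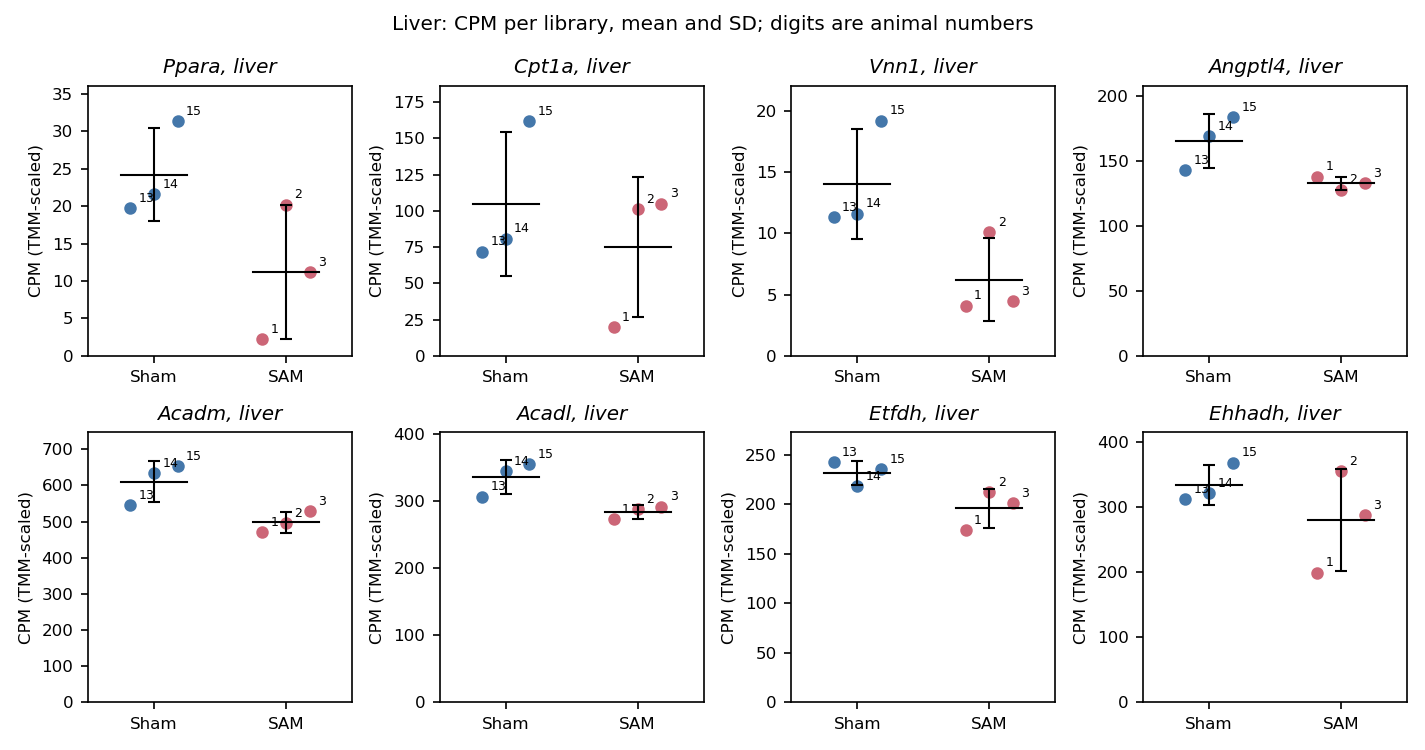
Scaled CPM of 8 members in the 6 liver libraries, 1 panel per gene with its own y axis from 0; points are libraries labelled by animal number, the horizontal line is the mean and the bar the SD of 3. The SAM points of Vnn1, Angptl4, Acadm, Acadl and Etfdh lie below all Sham points, while in Ppara, Cpt1a and Ehhadh the lowest point is SAM 1 and another SAM point reaches the Sham range.

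Of 77 further genes of the pathway, listed by their roles in fatty acid uptake, activation, peroxisomal and omega oxidation, ketone bodies and control, 75 symbols were found on 76 genes. Among the 71 tested in liver, 32 were higher and 39 lower in SAM, and edgeR called 0. Every SAM library lay above every Sham library for 1 and below for 5, beside 5.19% and 5.63% of all genes. At an unadjusted p under 0.05 there was 1 gene, beside 2.70% of all genes. That was Crot, the peroxisomal carnitine octanoyltransferase, at 29.9, 35.6 and 25.7 CPM in SAM and at 50.5, 40.6 and 42.8 CPM in Sham. The groups of Crot did not overlap, and its difference was -0.55 ± 0.18 (adjusted p = 0.802, edgeR's quasi-likelihood test) and -0.54 without SAM 1. Nudt19, a hydrolase of CoA, was at 24.9, 16.1 and 19.2 CPM in SAM and at 14.1, 16.6 and 11.7 CPM in Sham. Its groups overlapped, and the difference of 0.50 ± 0.22 was 0.32 without SAM 1. Nudt7, a peroxisomal enzyme that degrades CoA, and Acot12, a thioesterase of acetyl-CoA, were both lower without overlap, by -0.34. Ppard, a related fatty acid receptor, was at 76.0 CPM in SAM 1 and at 6.59 to 16.1 CPM elsewhere, so its difference of 1.66 was 0.05 without that library. The row named Acaa1b, whose RefSeq transcript RefSeq lists under Acaa1a, averaged 354 ± 72.6 CPM over the SAM and 314 ± 32.1 CPM over the Sham libraries (SD, n = 3), a difference of 0.17 ± 0.19.

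In brain, 20 of the 28 members tested were higher in SAM and 8 lower, with a median of 0.12 against 0.01 for all genes (Vnn1 and Fgf21 had too few counts). EdgeR called 0 members and 0 of 15126 genes (0%); 4 members and 20.5% of all genes had an unadjusted p under 0.05, and the 4 members were all higher in SAM. In edgeR's fit over all 8 groups 0 members had an unadjusted p under 0.05. DESeq2 called 1 of 30 members (3.33%), Cpt1b, and 514 of 21613 genes (2.38%), shares near each other. For 7 members every SAM library lay above every Sham library, as for 11.6% of all genes, and for 0 members below, as for 12.2%.

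Cpt1b had the lowest p. It was at 11.8, 8.86 and 7.78 CPM in SAM 1, 2 and 3 and at 6.03, 4.73 and 5.20 CPM in Sham 13, 15 and 16. Every SAM library was above every Sham library, and the log2 fold change was 0.84 ± 0.20 (adjusted p = 0.221, edgeR's quasi-likelihood test). With SAM 3 as the only SAM library the difference was 0.55, and with DESeq2 it was 0.83 (adjusted p = 0.0269). Eci1, the mitochondrial enoyl-CoA isomerase whose promoter is shown above, was at 17.7, 16.3 and 20.7 CPM in SAM and at 13.6, 13.7 and 13.5 CPM in Sham. The 3 Sham libraries of Eci1 were nearly equal and all SAM libraries were higher, by 0.42 ± 0.12, and by 0.61 with SAM 3 alone.

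Hadh and Acadvl were the other members with an unadjusted p under 0.05. Hadh was at 24.2, 21.2 and 21.7 CPM in SAM and at 16.6, 19.2 and 16.2 CPM in Sham. Acadvl, the very-long-chain dehydrogenase of the inner mitochondrial membrane, was at 73.5, 68.3 and 69.9 CPM in SAM and at 56.8, 63.7 and 56.6 CPM in Sham. Groups did not overlap for either gene, and the differences were 0.37 ± 0.11 and 0.26 ± 0.08, with adjusted p = 0.221 for both. With SAM 3 alone they were 0.33 and 0.25. Neuron markers of SAM 3 lay near those of Sham, but other marker lists did not. Summed astrocyte markers were at 4157.8 CPM in SAM 3 against 3403.8 to 3435.3 CPM in Sham, endothelium markers at 213 against 143 to 157 CPM, and erythroid markers at 463 against 137 to 202 CPM. Oligodendrocyte markers were lower, at 4030.7 against 5450.4 to 6483.3 CPM. Stellate cell and fibroblast markers were higher in all 3 SAM brain libraries, at 157, 131 and 174 CPM against 90.2, 89.0 and 109 CPM in Sham. The part of these cell types in the members' differences was not tested.

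The peroxisomal pair and Acat1 were also higher without overlap. Ehhadh was at 3.91, 3.87 and 3.97 CPM in SAM and at 3.07, 2.18 and 3.66 CPM in Sham, a difference of 0.39 ± 0.22. The gap of Ehhadh was narrow and rested on few counts, 65 in SAM 2 (3.87 CPM) and 71 in Sham 16 (3.66 CPM). Eci2 was at 33.9, 34.6 and 35.7 CPM in SAM and at 30.4, 32.4 and 32.1 CPM in Sham. Acat1, the mitochondrial acetoacetyl-CoA thiolase that makes and uses ketone bodies, was at 91.0, 86.5 and 83.0 CPM in SAM and at 79.6, 78.8 and 79.6 CPM in Sham. Both Eci2 and Acat1 differed by 0.13 ± 0.07. Eci2 was at 0.11 without SAM 3 and at 0.17 with SAM 3 alone, and Acat1 at 0.16 and 0.07. Ppargc1a took another form, with 47.1, 47.1 and 26.5 CPM in SAM against 30.7, 31.6 and 26.4 CPM in Sham. SAM 1 and SAM 2 were above the Sham range and SAM 3 was at its lower end, so that the difference was 0.45 ± 0.22 with all libraries, 0.67 without SAM 3 and -0.16 with SAM 3 alone. Pdk4 (6.20, 7.32 and 2.67 CPM in SAM against 4.47, 3.03 and 3.86 CPM in Sham) and Acot1 (3.21, 2.56 and 0.891 CPM against 0.837, 1.51 and 1.29 CPM) had the same arrangement. Hadha, by contrast, averaged 151 ± 1.71 CPM over the SAM and 152 ± 4.05 CPM over the Sham libraries (SD, n = 3).

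Leaving out SAM 3 changed the brain result most. Without it edgeR called 5896 of 15493 genes (38.1%) and 10 of 28 members (35.7%), a share near that of all genes. Among the members, Cpt1b, Eci1, Hadh, Acadvl, Ppargc1a, Acaa2, Acot1 and Pdk4 were called higher and Cpt2 (-0.40) and Hadhb (-0.24) lower. Of these, Cpt1b was at 0.96 (adjusted p = 0.00417), Ppargc1a at 0.67 (adjusted p = 8.96e-04), and Eci1, Hadh and Acadvl at 0.32, 0.39 and 0.26. The 2 SAM libraries left are those with the high inhibitory and low excitatory neuron markers, and the part of that in these calls was not tested. SAM 3 was itself highest of the 6 libraries for 13 of the 28 members tested, against 15.7% of all genes, among them Ppara, Cpt1a, Cpt2 and Hadhb.

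Among 62 further pathway genes tested in brain, 31 were higher and 31 lower, and edgeR called 0. At an unadjusted p under 0.05 there were 3 higher and 5 lower, beside 20.5% of all genes. Every SAM library lay above every Sham library for 6 of the 62 and below for 6, beside 11.6% and 12.2% of all genes. Ucp3, an uncoupling protein usually found with fatty acid oxidation in muscle, was at 2.77, 2.62 and 1.94 CPM in SAM and at 0.893, 1.15 and 0.721 CPM in Sham. Every SAM library was higher, by 1.42, and by 1.08 with SAM 3 alone. Acot4, Acat2 and Acot9 were lower without overlap, by -0.62, -0.34 and -0.42.

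**Figure D3:**
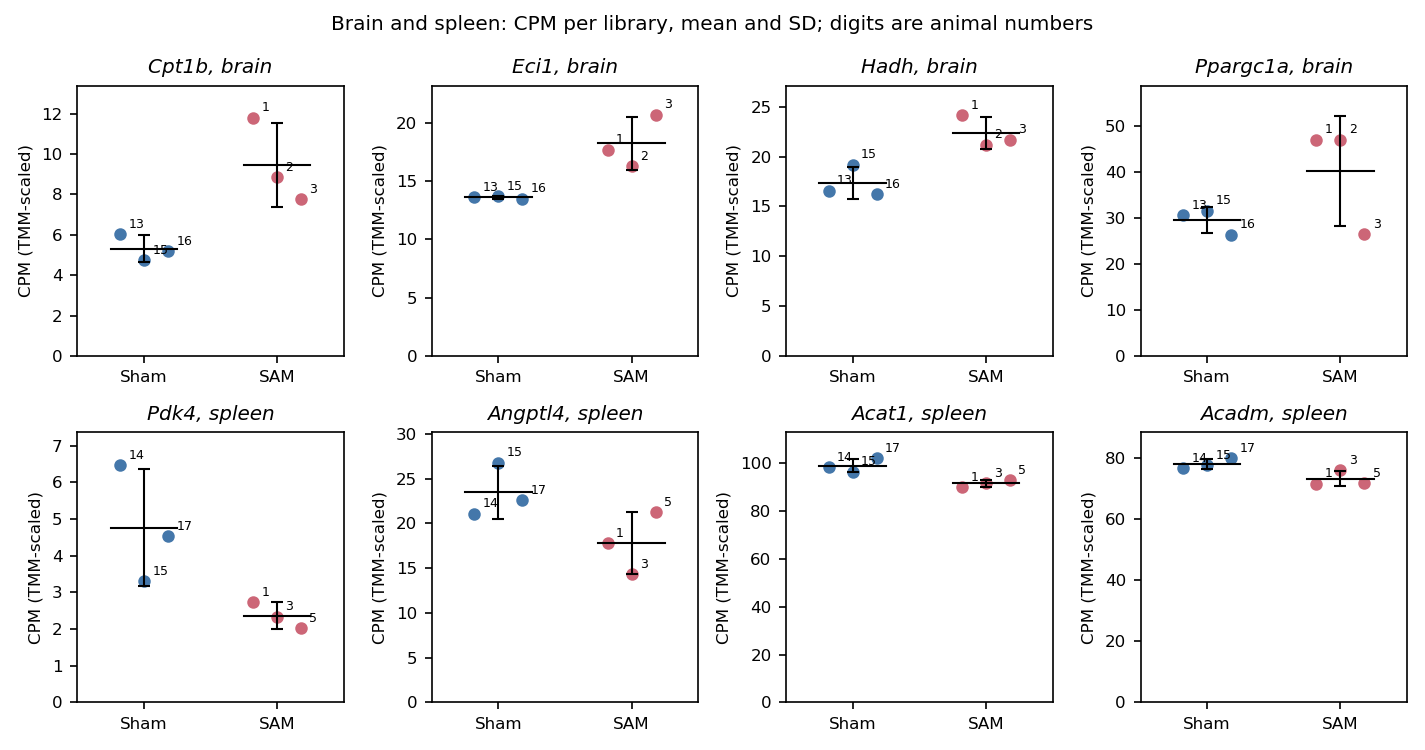
Scaled CPM of 4 members in brain (top) and 4 in spleen (bottom), 1 panel per gene with its own y axis from 0; points are libraries labelled by animal number, the horizontal line is the mean and the bar the SD of 3. In brain all SAM points of Cpt1b, Eci1 and Hadh are above all Sham points, and Ppargc1a of SAM 3 lies at the Sham level; in spleen all SAM points of Pdk4, Acat1 and Acadm are below all Sham points.

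In thymus the members varied far more between libraries of 1 group than between the groups. Of the 27 members tested, 2 were higher and 25 lower in SAM, with a median of -0.34 against 0.00 for all genes (Ppara, Acot1 and Fgf21 did not pass the filter). EdgeR called 0 members and 0 of 15036 genes (0%); 0 members and 6.13% of all genes had an unadjusted p under 0.05, and DESeq2 called 0 members and 100 genes. Vnn1 was the 1 member with every SAM library above every Sham library (4.97% of all genes), and 0 lay below (6.96%). It was at 3.76, 4.09 and 4.05 CPM in SAM 1, 3 and 5 and at 3.75, 3.28 and 3.71 CPM in Sham 14, 15 and 17. SAM 1 and Sham 14 were almost equal, and the difference was 0.15 ± 0.17.

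The libraries of SAM 1 and Sham 15 were the 2 highest of the 6 for 23 of the 27 tested members, with Sham 15 on top for 22 of these, as against 11.6% of the 15036 genes. Members in this and the next paragraph, other than Cpt1a, Cpt1b, Ehhadh, Vnn1, Angptl4 and Pdk4, were picked after their values were seen. Cpt1b was at 63.8 CPM in SAM 1 and at 6.62 and 6.14 CPM in SAM 3 and 5, and at 130 CPM in Sham 15 and 7.14 and 6.56 CPM in Sham 14 and 17. Acadl was at 211, 45.9 and 51.4 CPM in SAM 1, 3 and 5 and at 50.1, 388 and 47.9 CPM in Sham 14, 15 and 17. Pdk4 was at 30.8, 2.13 and 4.49 CPM in SAM and at 5.16, 73.5 and 4.02 CPM in Sham. In each of these genes 1 library of each group was far above the other 2. Those other libraries were alike in both groups for Cpt1b and Acadl, and ranged from 2.13 to 5.16 CPM for Pdk4. Ppara followed them, at 4.87 CPM in SAM 1, at 8.93 CPM in Sham 15 and at 0.224 to 0.456 CPM in the other 4. Ehhadh (8.32 and 21.2 CPM against 4.04 to 5.74 CPM) and Hadhb (347 and 519 CPM against 150 to 165 CPM) did the same on a smaller scale, and Hadha was at 317 and 390 CPM against 235 to 252 CPM.

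Beside these values, the summed adipocyte markers (7 of 7 found) were at 889 CPM in SAM 1, at 1407.5 CPM in Sham 15 and at 104 to 295 CPM in the other 4. Of the listed brown fat markers (Ucp1, Dio2 and Elovl3), Ucp1 was high in both, as given above, and Elovl3 was at 0 CPM in both. Values of Dio2 are not reported here. Mitochondrially encoded genes took 5.64% and 8.18% of the counts in SAM 1 and Sham 15 and 2.95 to 3.64% in the others. Summed skeletal muscle markers were at 14.8 to 19.8 CPM in all 6 libraries. The part of adipose tissue in the members' values was not tested.

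The 4 tested members that did not have these 2 libraries on top were Cpt1a, Bdh1, Vnn1 and Angptl4. Cpt1a was at 38.0, 55.7 and 83.6 CPM in SAM and at 56.5, 65.2 and 86.1 CPM in Sham, with SAM 1 the lowest of all. Bdh1, the dehydrogenase that interconverts the main ketone bodies, was at 54.9, 53.6 and 48.8 CPM in SAM and at 56.5, 49.2 and 51.4 CPM in Sham, a difference of 0.00 ± 0.08. Angptl4 was high in Sham 15 alone, at 25.8 CPM against 7.80 to 13.3 CPM.

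The members' direction in thymus turned with these libraries. Their median was 0.42 without Sham 15 (24 higher and 3 lower), -0.72 without SAM 1, and 0.03 without both (14 higher and 12 lower of 26 tested). Cpt1b was at -0.91 ± 1.31 with all libraries, at 1.89 without Sham 15 and at -0.10 ± 0.18 without both. Without both, Hadh had the lowest p among the members. It was at 147, 90.6 and 80.3 CPM in SAM 1, 3 and 5 and at 125, 242 and 115 CPM in Sham 14, 15 and 17. SAM 3 and SAM 5 were below every Sham library, SAM 1 was between Sham 14 and 15, and the difference was -0.60 ± 0.32 with all libraries and -0.49 ± 0.09 without both (adjusted p = 0.447, edgeR's quasi-likelihood test).

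**Figure D4:**
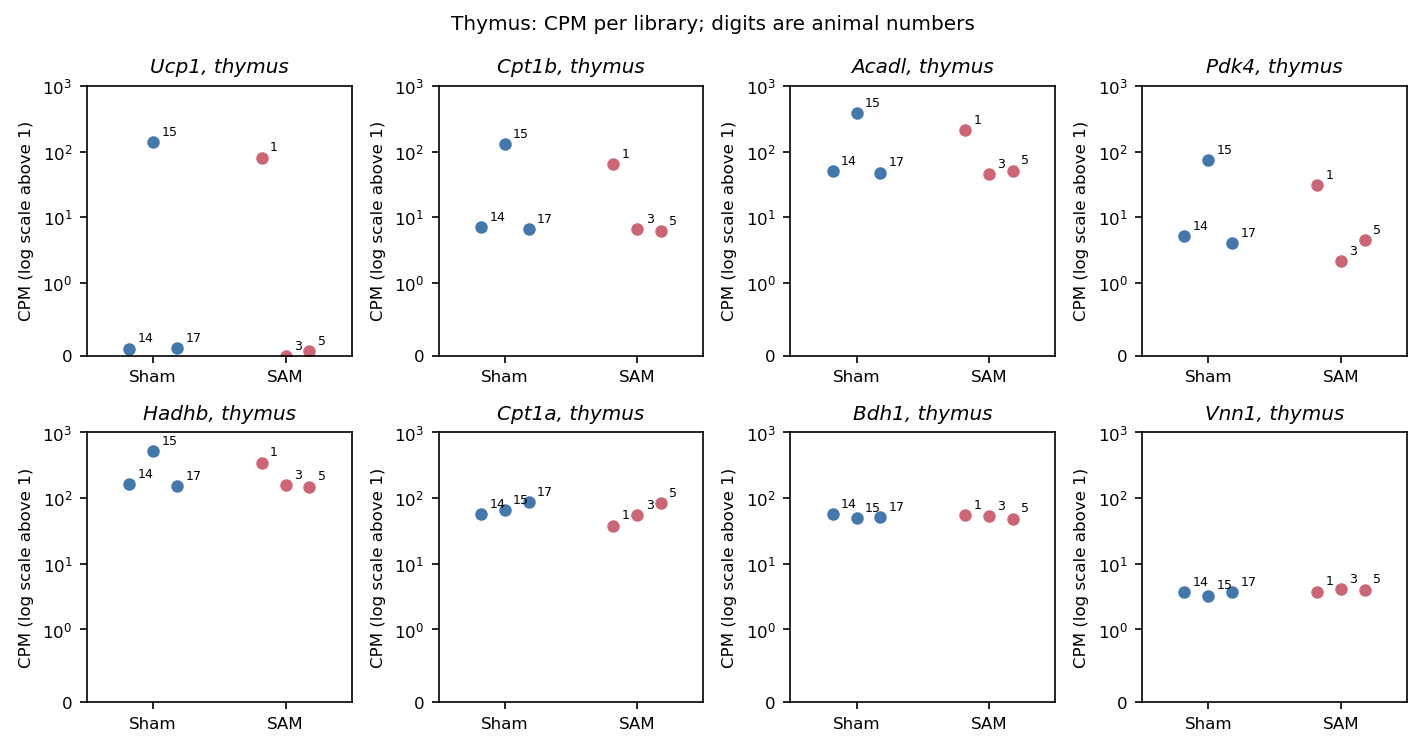
CPM of Ucp1 and 7 members in the 6 thymus libraries; the y axis is logarithmic above 1 CPM and linear below it, points are libraries and digits are animal numbers. SAM 1 and Sham 15 stand above the other 4 libraries in Ucp1, Cpt1b, Acadl, Pdk4 and Hadhb, and do not in Cpt1a, Bdh1 and Vnn1.

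Of 61 further pathway genes tested in thymus, 16 were higher and 45 lower, and edgeR called 0. At an unadjusted p under 0.05 there were 2 genes, both lower, beside 6.13% of all genes. Every SAM library lay below every Sham library for 2 of the 61, beside 6.96% of all genes. For 38 of the 61 the libraries of SAM 1 and Sham 15 were the 2 highest, beside 11.6% of all genes. The 2 genes with the low p were not among them. Abcd3, a peroxisomal importer of long-chain acyl-CoA, was at 78.5, 70.3 and 66.0 CPM in SAM and at 90.4, 108 and 84.0 CPM in Sham, a difference of -0.40. Rxra, the dimer partner of PPARA, was at 27.7, 30.6 and 29.0 CPM in SAM and at 33.4, 33.9 and 37.3 CPM in Sham, a difference of -0.26. Neither gene's groups overlapped, and neither passed edgeR's quasi-likelihood test after adjustment.

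In spleen the differences furthest from 0 were those of Pdk4, Ppara and Angptl4, all lower in SAM, and no member passed the test. Of the 27 members tested, 8 were higher and 19 lower in SAM, with a median of -0.04 against 0.00 for all genes (Ppargc1a, Acot1 and Fgf21 did not pass the filter). EdgeR called 0 members and 0 of 14530 genes (0%); 2 members, both lower, and 4.11% of all genes had an unadjusted p under 0.05, against 0 members in the fit over all 8 groups, and DESeq2 called 0 members and 7 genes. Every SAM library was below every Sham library for 5 members (4.74% of all genes) and above for 1 (4.47%).

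Pdk4 was at 2.74, 2.34 and 2.02 CPM in SAM 1, 3 and 5 and at 6.47, 3.30 and 4.53 CPM in Sham 14, 15 and 17. All SAM libraries were below all Sham libraries, and the Sham libraries differed among themselves by more than the gap. The difference was -1.0 ± 0.28 (adjusted p = 0.967, edgeR's quasi-likelihood test), from -1.21 to -0.71 when each library was left out in turn. Sham 14, the library with the highest Pdk4, also had the highest summed erythroid markers, 58185.6 CPM against 27591.4 to 47791.2 CPM, whose part was not tested. Angptl4 was at 17.8, 14.3 and 21.3 CPM in SAM and at 21.1, 26.8 and 22.6 CPM in Sham. SAM 5 reached the lowest Sham library, and the difference was -0.40 ± 0.16 (adjusted p = 0.967, edgeR's quasi-likelihood test).

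Apart from Ppara, the other non-overlapping members differed by 0.11 or less in size. Acat1 was at 90.0, 91.7 and 93.0 CPM in SAM and at 98.5, 96.5 and 102 CPM in Sham, a difference of -0.11 ± 0.06. Acadm was at 71.5, 75.9 and 71.7 CPM in SAM and at 76.5, 77.4 and 79.7 CPM in Sham. Slc25a20, the carrier that exchanges acylcarnitine for carnitine across the inner membrane, was at 41.3, 47.0 and 47.1 CPM in SAM and at 47.9, 48.0 and 48.1 CPM in Sham. Both Acadm and Slc25a20 differed by -0.09, and in Slc25a20 only SAM 1 was clearly apart. Ppara was at 0.571, 1.17 and 1.04 CPM in SAM and at 1.39, 1.21 and 1.19 CPM in Sham, a difference of -0.44 ± 0.31. Decr1, the reductase for polyunsaturated chains, was the member higher in every SAM library, at 31.4, 33.5 and 32.2 CPM against 30.6, 28.5 and 30.7 CPM, a difference of 0.11 ± 0.07. Vnn1, which in Sham was about as high in spleen as in liver, was at 48.5, 43.8 and 29.6 CPM in SAM and at 42.4, 42.2 and 28.7 CPM in Sham, and its groups overlapped almost wholly. Among 61 further pathway genes tested, 31 were higher and 30 lower, and edgeR called 0. Mgll, a monoacylglycerol lipase, alone had an unadjusted p under 0.05 (0.36, groups overlapping), beside 4.11% of all genes. Cpt1c and Lipe were at 0.62 and -0.26.

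Whether the difference between SAM and Sham varied with tissue was tested with 3 interaction terms over all 24 libraries. EdgeR called 0 of the 30 members and 2 of 17623 genes (0.0113%), and at an unadjusted p under 0.05 it gave 1 member and 9.20% of all genes. The member was Vnn1, lower in SAM liver (-1.15), at 0.15 in thymus and at 0.10 in spleen (interaction adjusted p = 0.457, edgeR's quasi-likelihood test). Hadh, lower in liver and thymus and higher in brain, had an interaction adjusted p of 0.55 in edgeR's quasi-likelihood test. A difference between tissues was therefore not detectable for any member at this depth and number of libraries.

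**Figure D5:**
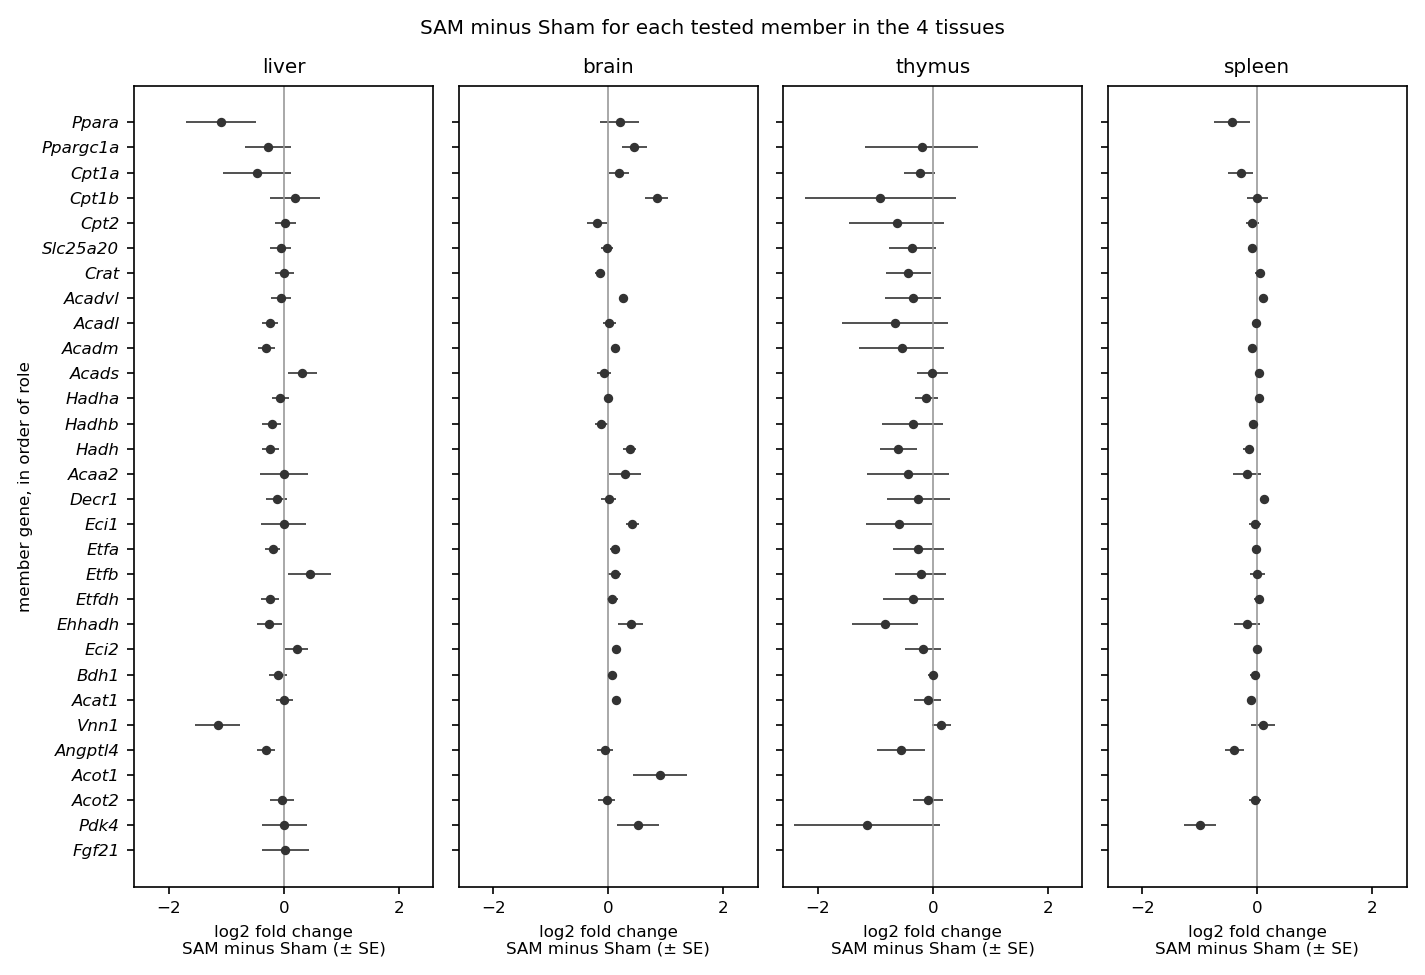
Log2 fold change, SAM minus Sham, of each tested member in liver, brain, thymus and spleen, in order of role; points are edgeR estimates, bars are 1 SE, and genes that did not pass the filter in a tissue have no point. Most thymus points lie left of 0 with wide bars, most brain points lie at or right of 0, and the spleen points furthest from 0 are Pdk4 at -1.0, Ppara at -0.44 and Angptl4 at -0.40.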

How the data were processed

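RNA of 4 rat tissues was sequenced in 24 libraries, 3 per tissue and treatment; per the labels' protocols, the library kit (TruSeq stranded mRNA) keeps the strand. STAR 2.2.1 and rn6 are named in the submitters' processing notes without a role. How reads were assigned to genes (program, strand setting, annotation) is not given in the sources used here. The deposited values are raw counts of 32883 genes, 47 of them without a symbol, in 1 table. Each column name gives the tissue and the animal number, which identify its sample.

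Each tissue was fitted alone in edgeR 4.0.16 (R 4.3.3) with filterByExpr, TMM and the quasi-likelihood test, adjusted by Benjamini-Hochberg over all genes tested. The tissue contrasts and the interaction used fits over 12 and 24 libraries. Alternatives were DESeq2 1.42.0, DESeq2-type size factors (RLE) in edgeR, no filter, a fit over all groups, animal number as a block, and leaving out libraries. The fits were tested on simulated data. No library was a copy of another: the chi-square per degree of freedom between replicates was 5.95 to 193.

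The members and gene lists were chosen with earlier results of these data known. Library values are given, per tissue, for at most 8 members with an unadjusted p under 0.05 or groups that do not overlap, lowest p first, and for 9 sentinels (Ppara, Ppargc1a, Cpt1a, Cpt1b, Ehhadh, Vnn1, Angptl4, Pdk4 and Fgf21) in at least 1 tissue; up to 5 further pathway genes with the lowest p are named per tissue. Members given outside this rule were picked after their values were seen: Acot1 and Hadha in brain, Acaa2, Etfb and Eci1 in liver, and those the text says so of in thymus. Promoter windows came from RefSeq (GRCr8). One further pathway gene met the naming rule and is not reported here.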

Additional observations from a re-analysis of the deposited data

Results flagged for a closer look

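In 3 members all SAM libraries lay on one side of Sham in 1 tissue and on the other side in another tissue. The share of all genes that did the same was not computed. In single tissues, SAM lay above without overlap for 11.6% of all genes in brain and 4.97% in thymus. It lay below for 5.63% in liver and 4.74% in spleen. Hadh was above Sham in brain and below it in liver, and the interaction over the 4 tissues had an adjusted p of 0.55 in edgeR's quasi-likelihood test. Acat1 was above in brain and below in spleen (adjusted p = 0.953 in the same edgeR test). Vnn1 was above in thymus, by a narrow gap, and below in liver (adjusted p = 0.457 in the same edgeR test). No member passed this test.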

How the results depend on the processing

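Genes called in liver numbered 0 in the reported fit, 2 with DESeq2, 1 with RLE scaling, 1 with no filter, 3 in the fit over all groups and 0 to 1 with each library left out. In brain they numbered 0, 514 with DESeq2, 579 in the fit over all groups, 1 without SAM 1 and SAM 2, and 0 to 5896 with each library left out, members called being 1 with DESeq2 and 0 to 10. In thymus they numbered 0, 100 with DESeq2, 3 with no filter and 3 in the fit over all groups, and 0 with each library left out. In spleen they numbered 0, 7 with DESeq2 and 0 to 1 with each library left out. No member was called in liver, thymus or spleen under any of these. The members' median with each library left out ran from -0.18 to -0.02 in liver, 0.10 to 0.14 in brain (0.08 in the fit over all groups), -0.72 to 0.42 in thymus and -0.08 to -0.02 in spleen.

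The interaction called 2 genes, 15 with no filter, 1 without the brain libraries and 1 to 990 with each library left out (990 without brain SAM 3, 68 without liver SAM 2), and 0 members throughout. Liver was called higher for 28 members in Sham with each library left out and for 27 to 28 in SAM; members called lower in SAM numbered 0 with RLE scaling, 0 with DESeq2, 2 with no scaling and 0 to 1 with each library left out, and in Sham 1 with no scaling. With animal number as a replicate block the interaction called 3 genes and 0 members, and the liver contrasts called 28 higher and 0 lower in Sham and 28 higher and 1 lower in SAM, so the block changed no call of a member. The labels do not say that equal numbers are the same rat: of 25 pairs of same-numbered libraries 2 had a correlation of deviations over 0.1 (range -0.01 to 0.17).

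Without SAM 1 and SAM 2, 11 of 28 members turned sign in brain, 5 from lower to higher and 6 from higher to lower, among them Ppargc1a (-0.16), Acot1 (-0.44), Pdk4 (-0.50) and Acaa2 (-0.35). Without SAM 1 and Sham 15, 13 of 26 turned in thymus, all from lower to higher, among them Angptl4 (0.09), Acadvl (0.06) and Decr1 (0.19). With each library left out, ranges of log2 fold changes were kept for only some members of each tissue. Among these, the ranges that turned sign in liver were -0.64 to 0.05 (Ppargc1a), -0.41 to 0.35 (Pdk4) and -0.24 to 0.38 (Fgf21). In thymus they were -0.56 to 0.01 (Cpt1a), -2.91 to 1.89 (Cpt1b), -3.06 to 1.43 (Pdk4) and -1.74 to 1.06 (Acadl). Further thymus ranges were -1.18 to 0.17 (Ehhadh), -0.87 to 0.06 (Angptl4) and -0.85 to 0.46 (Hadhb). In spleen the range of Vnn1 was -0.06 to 0.29. Members without such a range also turned. Examples are Etfb in liver (0.45 with all libraries, -0.17 without SAM 1) and Ppara in brain (0.20 with all libraries, -0.13 without SAM 3). The cause was not tested. With 3 libraries a group and totals of 12851169 to 20124738 counts, small differences could not be detected, and genes below 1 CPM rest on few counts. The alternative without SAM 1 and Sham 15 and the one with no scaling were chosen after seeing the data.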

Other observations

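Cpt1a was lowest of the 6 libraries in SAM 1 in each of the 4 tissues, at 19.7 CPM in liver (71.8 to 162 in the other 5), 35.5 in brain (36.8 to 55.7), 38.0 in thymus (55.7 to 86.1) and 46.4 in spleen (58.7 to 90.5). Of 11020 genes tested in all 4 tissues, 0.481% were lowest in SAM 1 throughout. Acaa2 was lowest in SAM 3 in each tissue, at 232 CPM in liver (474 to 856), 17.6 in brain (19.0 to 34.1), 35.8 in thymus (78.4 to 332) and 37.3 in spleen (60.1 to 82.9), as for 0.118% of these genes. Both members were picked after their values were seen, out of 25 tested in all tissues, and the labels do not state that equal numbers mark the same rat.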
